A study of Homo sapiens with 10 samples.

Results

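The regions described here are 7324 CTCF peaks of HEK-293T cells that were found when CGGBP1 was knocked down and when it was overexpressed, but not in the control, and that lay outside H3K4me3. They were chosen by peak position alone. A CTCF peak of the knockdown was kept if it shared at least 1 bp with a CTCF peak of the overexpression library and none with a CTCF peak of the control or an H3K4me3 peak of the knockdown. Of the 47632 CTCF peaks in the knockdown, 22.7% were absent from the control and present in the overexpression library, and 67.7% of those lay outside H3K4me3, so that the 7324 peaks made up 15.4% of the list and 23% of its 31867 peaks outside H3K4me3. They are called control-absent peaks below. Presence in the CTCF lists and absence from the H3K4me3 list of the knockdown chose them and are not findings.

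HEK-293T is an established human embryonic kidney cell line. Cells were transduced with lentiviruses that carried a non-targeting shRNA (CT), shRNA that silences CGGBP1 by targeting several regions of its open reading frame (KD), or a CGGBP1-FLAG overexpression construct (OE). Puromycin selection was applied to the cells given shRNA. CTCF was measured by ChIP-seq in CT, KD and OE, and H3K4me3, H3K9me3 and H3K27me3 in CT and KD, beside 1 input library, for which the labels name no CGGBP1 level. Each condition had 1 library, and no value below has a replicate check. The deposited lists held only chromosome, start and end of each peak, so the number of reads behind a peak was unknown. Intervals are 95% intervals over peaks (exact Clopper-Pearson for a share, Newcombe for a difference of shares), cover counting error only, and treat neighbouring peaks as independent. CT had 42978 CTCF peaks, KD 47632 and OE 47216. Per the labels, peaks were called at p below 0.0025 in CT and KD but 0.005 in OE.

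CTCF is a zinc finger protein that binds a long, strongly conserved DNA motif and, with the cohesin ring, holds the bases of chromatin loops and bounds domains. Cohesin stops preferentially where the motif points toward it, so the strand of a site matters. CpG methylation within the motif can weaken binding. CGGBP1 is a small zinc finger protein that binds CGG repeats. H3K4me3 marks active start sites, H3K9me3 constitutive heterochromatin and H3K27me3 Polycomb-repressed chromatin.

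The sequences beneath most control-absent peaks held a CTCF site. A matrix with 14 columns was learned from CT peaks that were also found in KD and OE, none of which overlapped a control-absent peak, and a site was called where the matrix score, a log2 odds against base composition, passed the threshold of p below 0.0001. The 8 sites below had the highest scores on different chromosomes among control-absent peaks without repeated bases or exons, and are shown because they are the closest matches to the motif at which the CT list had no peak. Positions are hg38, each sequence reads 5′ to 3′ along the motif, and capitals mark the 14 matrix columns with 33 bases on either side.
Site near PTMA, chr2:231715378-231715457, minus strand: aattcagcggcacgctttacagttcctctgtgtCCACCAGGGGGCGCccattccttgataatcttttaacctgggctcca
Site in SIGLEC1, chr20:3711033-3711112, minus strand: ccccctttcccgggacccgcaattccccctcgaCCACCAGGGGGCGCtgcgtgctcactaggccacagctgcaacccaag
Site nearest to CLDN14, chr21:36630876-36630955, plus strand: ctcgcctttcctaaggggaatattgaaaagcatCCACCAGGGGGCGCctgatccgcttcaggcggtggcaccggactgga
Site in KCNJ9, chr1:160085756-160085835, plus strand: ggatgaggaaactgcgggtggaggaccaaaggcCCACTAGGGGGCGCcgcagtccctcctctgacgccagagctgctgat
Site in CENPX, chr17:82020071-82020150, plus strand: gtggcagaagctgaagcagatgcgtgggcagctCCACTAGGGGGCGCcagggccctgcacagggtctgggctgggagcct
Site in MYOF, chr10:93352792-93352871, minus strand: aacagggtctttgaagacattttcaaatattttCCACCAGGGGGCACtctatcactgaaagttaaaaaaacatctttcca
Site nearest to DAP, chr5:10863933-10864012, plus strand: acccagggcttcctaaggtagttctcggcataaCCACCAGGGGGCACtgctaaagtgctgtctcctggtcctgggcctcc
Site nearest to FKBP1C, chr6:62891213-62891292, minus strand: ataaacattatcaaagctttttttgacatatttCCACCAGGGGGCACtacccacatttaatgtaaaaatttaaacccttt

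The first 3 of these sites shared the same 14 bases and the same score of 23.60, the highest found. The KCNJ9 and CENPX sites scored 23.12, and the other 3 scored 23.10. The first lay 1.87 kb from PTMA, the prothymosin alpha gene. SIGLEC1 (a macrophage sialic acid receptor), KCNJ9 (a potassium channel subunit), CENPX (a centromere protein of the Fanconi anaemia core pathway) and MYOF (myoferlin, a membrane repair protein) held their sites in introns. The other 3 were intergenic, at 54.4 kb from CLDN14, 103 kb from DAP and 320 kb from FKBP1C. The first 5 held a CG dinucleotide within the motif and the last 3 did not. No H3K9me3 peak overlapped any of the 8. The nearest CT peak lay between 1.22 kb (PTMA) and 111 kb (FKBP1C) away. When the CT reads were mapped to the repeat-masked genome, CT had a peak at 3 of the 8, those at PTMA, SIGLEC1 and DAP, so for these the absence in CT held in the unmasked list alone.

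A smaller share of control-absent peaks held no site, and these fell into 2 kinds of sequence. Examples of both are given next, the widest site-free peaks of at most 300 bp without a repeated base and with all bases repeated. Repeated bases are those covered by a 24-mer with 10 or more copies in hg38, on either strand. Capitals in the second mark a match to the CENP-B box, the element of alpha satellite DNA that the centromere protein CENP-B binds (TTCG, any 4 bases, A, any 2 bases, CGGG, searched on both strands).
Site-free peak in ABTB3, chr12:107565023-107565321, plus strand: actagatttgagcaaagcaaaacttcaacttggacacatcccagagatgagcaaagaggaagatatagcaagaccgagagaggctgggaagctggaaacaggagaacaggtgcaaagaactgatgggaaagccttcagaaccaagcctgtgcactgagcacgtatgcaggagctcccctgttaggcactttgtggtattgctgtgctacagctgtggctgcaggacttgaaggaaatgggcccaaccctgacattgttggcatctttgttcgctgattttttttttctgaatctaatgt
Site-free peak in a tandem array, chr10:40798220-40798519, plus strand: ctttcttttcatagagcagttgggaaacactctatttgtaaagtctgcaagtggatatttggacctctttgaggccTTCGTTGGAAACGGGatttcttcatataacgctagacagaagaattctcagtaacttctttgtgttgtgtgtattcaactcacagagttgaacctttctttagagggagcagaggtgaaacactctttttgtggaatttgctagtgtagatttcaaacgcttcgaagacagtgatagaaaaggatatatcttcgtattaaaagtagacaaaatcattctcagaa

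The first lay in an intron of ABTB3, with a G+C content of 47.2% and its nearest CT peak 42.2 kb away. The second had a G+C content of 37.3%, overlapped an H3K9me3 peak and lay 2.28 kb from the nearest CT peak, in a stretch of 800 bp where 62.1% of bases equalled the base found 1 or 2 alpha satellite units further on.

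Of the 7324 control-absent peaks, 6154 held a site, a share of 84% (83.2 to 84.9). In 29103 windows of 300 bp spaced 100 kb apart over the genome the share was 13.7%. Constitutive peaks outside H3K4me3, found in CT, KD and OE, held a site in 87.7% of 9046 peaks. The difference, control-absent minus constitutive, was -3.67 percentage points (-4.75 to -2.60). The matrix was learned on peaks of that constitutive kind, and the part of this in the difference was not tested. KD-only peaks outside H3K4me3, which lacked an OE peak as well, held a site in 39.5% of 13167. This left the control-absent peaks 44.6 points higher (43.4 to 45.7). KD and CT peaks outside H3K4me3, without an OE peak, held a site in 59.3% of 2330. The control-absent peaks were 24.7 points higher than these (22.6 to 26.9). The classes differ by the rule in which CTCF lists held the peak, from KD alone to CT, KD and OE. The part of repeated calling in their differences, here and below, was not tested. Control-absent peaks at H3K4me3 held a site in 78.2% of 3490, so the peaks outside it were 5.86 points higher (4.27 to 7.48). That last difference shrank to 0.663 points (-0.822 to 2.20) without peaks that overlapped an input peak, which were 1.06% of the peaks outside H3K4me3 and 8.05% of those at it.

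**Figure D1:**
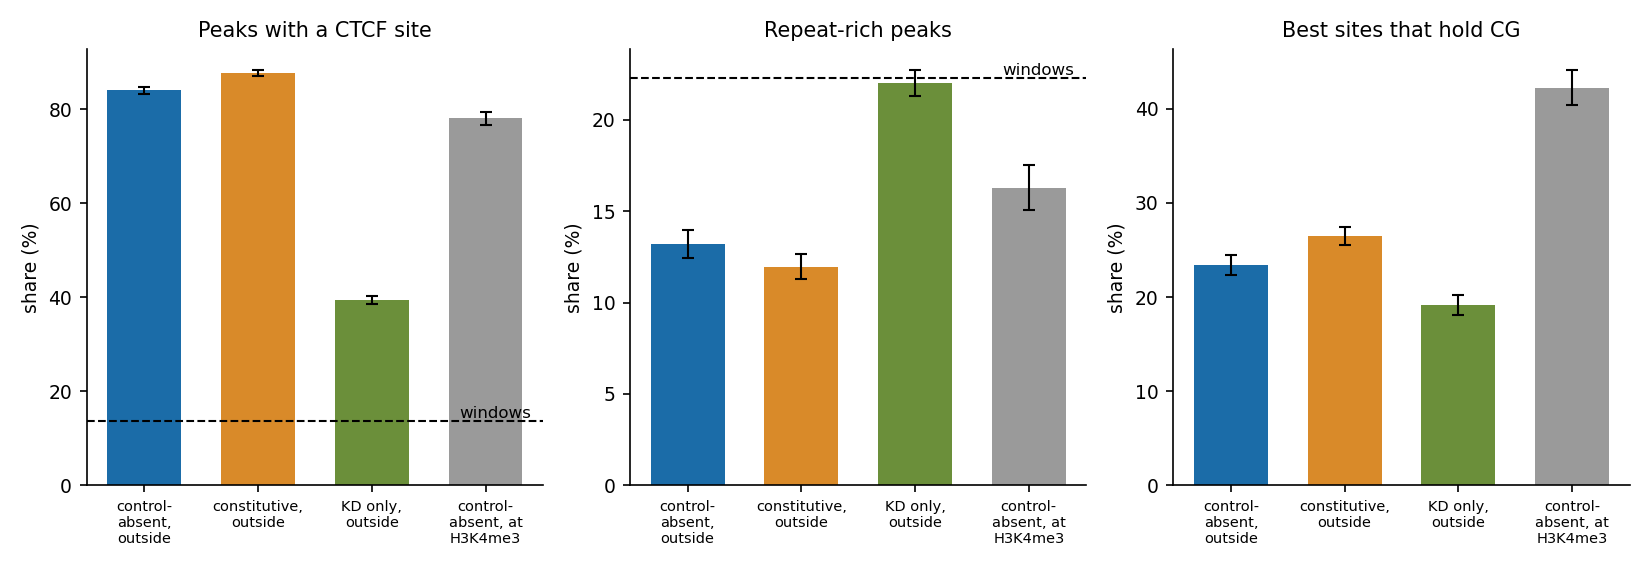
Share of peaks with a CTCF site, share of repeat-rich peaks and share of best sites that hold a CG dinucleotide, in percent, for 4 classes of KD peaks, of which the first 3 lie outside H3K4me3. Bars give the share, error bars its exact 95% interval over peaks, and dashed lines the share of evenly spaced 300 bp windows. The control-absent peaks (blue) lie between the constitutive and the KD-only peaks in all 3 panels, at 84%, 13.2% and 23.4%. KD and CT peaks outside H3K4me3 without an OE peak are not drawn.

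Where a site was present it was weaker than in constitutive peaks and stronger than in KD-only peaks. The median score of the best site was 16.31 in control-absent peaks, with an interquartile range of 13.77 to 18.55, against 17.15 in constitutive and 14.80 in KD-only peaks. In KD and CT peaks outside H3K4me3 it was 15.90. At the stricter threshold of p below 0.00001, 66.8% of control-absent peaks kept a site, which differed from constitutive peaks by -7.96 points (-9.36 to -6.56). More than 1 site was found in 18.4% of control-absent and 20.7% of constitutive peaks (difference -2.31 points, -3.52 to -1.08).

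The site lay close to the peak centre. Its median distance from the centre was 24 bp, against 23 bp in constitutive and 32 bp in KD-only peaks, and 80.8% of sites lay within 50 bp. The distribution was nearly the same around the OE peak at the same place. The centres of the KD and the OE peak lay a median of 33 bp apart, and in 93.7% of pairs each covered at least 50% of the other.

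**Figure D2:**
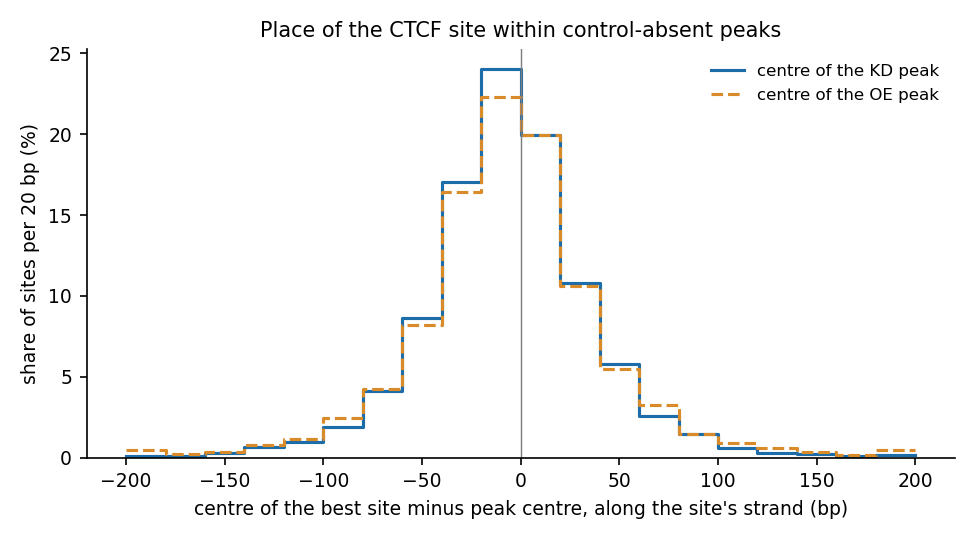
Position of the best CTCF site relative to the centre of the KD peak (solid) and of the OE peak (dashed) in the 6154 control-absent peaks with a site. The x axis is the distance in bp along the strand of the site, with positions beyond 200 bp put into the outermost bins, and the y axis the share of sites in bins of 20 bp. The highest bin around the KD centre, just before it, holds 24% of sites, and the next 20%.

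The sites were called with the matrix, so their bases resemble it by construction. Compared column by column with sites called in the same way, the column that differed most from constitutive peaks was the fourth, where C stood in 56.6% of control-absent sites and 61.9% of constitutive sites (difference -5.24 points, -6.88 to -3.61), and G in 34.9% and 31.9%. The next was the A of the third column, at 79.2% against 83.3% (difference -4.11 points, -5.42 to -2.81). The matrix was learned on peaks of the constitutive kind, whose sites also scored higher, and these columns were picked for their difference. The intervals do not allow for either, so the column values are given as a description. A CG dinucleotide, the substrate of DNA methylation, was present in 23.4% of the best sites of control-absent peaks and in 26.5% of constitutive ones, a difference of -3.08 points (-4.51 to -1.64). In KD and CT peaks outside H3K4me3 it was present in 25.3%, a difference of -1.94 points (-4.52 to 0.526). In control-absent peaks at H3K4me3 it was present in 42.2%, so the peaks outside it differed by -18.8 points (-21 to -16.7). CG dinucleotides were also more frequent over their whole length, at 27.1 per kb against 11.2 per kb. Constitutive peaks were divided by H3K4me3 in the same way. At H3K4me3 43.9% of their best sites held a CG, against 26.5% outside it. Over the whole length they held 25.7 and 11.8 CG per kb.

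Seen across site strength, the share of KD peaks outside H3K4me3 that were control-absent stayed nearly level while the constitutive and KD-only shares traded places. Peaks without a site were control-absent in 10.4% and KD-only in 71.2%. With a site scoring 12 to 14 the shares were 31.1% control-absent, 32.0% constitutive and 30.6% KD-only. With a site scoring 20 to 22 they were 29.5%, 52.5% and 13.1%. The control-absent share thus rose at the first appearance of a site and ranged from 27.2% to 31.3% at every score from 12 upward, whereas the constitutive share rose through the range. The class labels come from the CTCF lists, so these shares are given as a description.

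**Figure D3:**
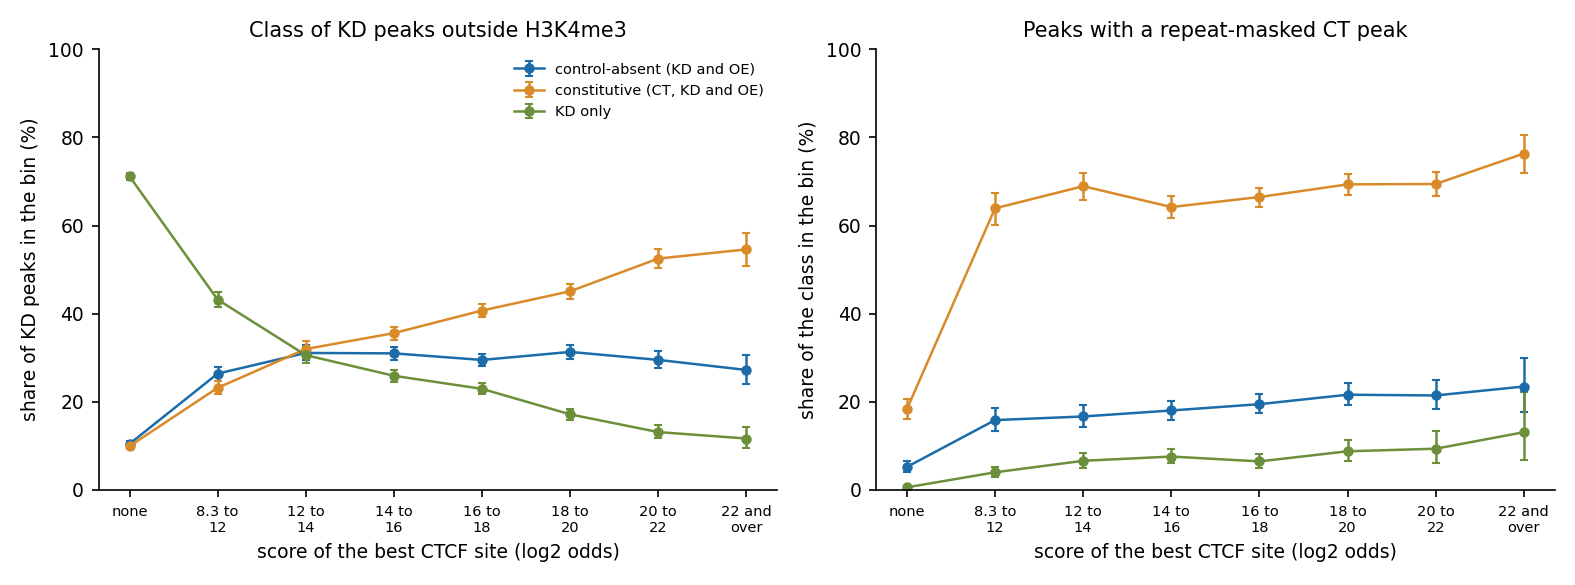
Left, share of the KD peaks outside H3K4me3 that were control-absent, constitutive or KD-only, by the score of their best CTCF site. Right, share of each class with a CTCF peak in CT on repeat-masked reads. Points give the share in percent and error bars the exact 95% interval. The control-absent share lies near 30% from a score of 12 upward, and its masked-read CT share rises from 5.21% without a site to 23.5% at scores of 22 and over.

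The nearest CT peak lay a median of 19.2 kb away, and 32.1% of control-absent peaks had one within 10 kb. At the margin of the rule, 98 had a CT peak within 500 bp, 11 within 100 bp, and the closest was separated from it by 3 bp. On the other side of the margin, 11 constitutive peaks outside H3K4me3 shared fewer than 50 bp with their CT peak, the least being 10 bp. In 12 cases the OE peak itself touched a CT peak that the KD peak did not. The smallest overlap with an OE peak was 1 bp, and 23 peaks shared fewer than 50 bp. Toward H3K4me3, 65 lay within 100 bp of a KD H3K4me3 peak, and 25 control-absent peaks were placed at H3K4me3 by an overlap of 10 bp or fewer.

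Peaks were also called on alignments of the same libraries to the repeat-masked genome. The reads are those that chose the peaks, and masking hides repeats, so contrasts between classes, or between sequences with many and few repeats, follow in part from the rule and the masking and are given as a description. A masked-read CTCF peak was found at 57.1% of control-absent peaks in KD, at 49.5% in OE and at 16.8% in CT (16 to 17.7). All 3 masked lists had a peak at 1085 control-absent peaks, and KD and OE without CT had one at 2358, the pattern that the unmasked rule asks for. None of the masked lists had a peak at 2916, of which 31.8% were repeat-rich. Among constitutive peaks with a site that were not repeat-rich, 69.1% had a masked-read CT peak, against 19.5% of control-absent ones of the same kind. Control-absent peaks with a masked-read CT peak held a site in 95%, with a median score of 16.86, against 81.8% and 16.17 in the rest.

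Peaks in which at least 50% of bases were repeated are called repeat-rich. This was so for 967 control-absent peaks, 13.2% (12.4 to 14), against 22.3% of the evenly spaced windows. It was 1.23 points more than in constitutive peaks (0.211 to 2.26) and differed from KD-only peaks by -8.81 points (-9.85 to -7.75). KD and CT peaks outside H3K4me3 were repeat-rich in 43.2%, a difference of -30 points (-32.1 to -27.8). The difference from constitutive peaks did not hold among peaks of 300 bp or less, where it was -0.342 points (-1.96 to 1.28), and it was 0.773 points (-0.242 to 1.80) without peaks that had a CT peak within 500 bp. Without peaks in the tandem arrays described further on, a comparison added after the data were seen, 5.33% of control-absent peaks were repeat-rich, and the difference turned to -0.456 points.

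Site and repeat content together split the control-absent peaks into 4 groups. The largest, 5923 peaks, had a site and were not repeat-rich. Another 736 had no site and were repeat-rich, 434 had neither, and 231 had both. Of the 1170 peaks without a site, most were therefore repeat-rich. The group with a site and few repeats had a median width of 295 bp and lay a median of 8.76 kb from a transcription start site. The repeat-rich group without a site was narrower, at 260 bp, poorer in G+C, at a mean of 39.2% against 44.3%, and lay a median of 812 kb from a start site, with 90.8% of its peaks outside annotated genes. The 434 peaks with neither lay a median of 8.44 kb from a start site, with 36.4% outside genes, close to the 33.3% of the group with a site.

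The repeat-rich peaks without a site lay mostly in tandem repeats with the period of alpha satellite DNA, the sequence family of human centromeres, whose unit is about 171 bp long. In 533 of the 736, a share of 72.4%, at least 50% of the bases in the surrounding 800 bp equalled the base 1 or 2 unit lengths further on (within 3 bp of 171 and 340 bp, the shifts at which these peaks matched themselves best). The share was 63.3% among constitutive peaks outside H3K4me3 of the same make, 38.8% among KD-only ones, 64.3% among control-absent ones at H3K4me3 and 2.03% in the windows. The shifts were picked on the 736 control-absent peaks, and the part of this in differences between classes was not tested. A CENP-B box stood in the 300 bp around the centre of 47.3% of the 736 peaks and 1.35% of windows. Over all control-absent peaks it stood in 5.75% (5.23 to 6.31), and over all constitutive peaks outside H3K4me3 in 5.48% (5.02 to 5.97). Counting repeat-rich peaks with a site as well, 609 control-absent peaks were in such arrays, 8.32% of all, which was 1.73 points more than among constitutive peaks outside H3K4me3 (0.918 to 2.55). KD-only peaks stood at 8.39%, a difference of -0.0771 points (-0.857 to 0.724). The share was 8.71% in control-absent and 12.1% in constitutive peaks at H3K4me3, and 20% in KD and CT peaks outside H3K4me3 that had no OE peak. The arrays were local. Of the 812 control-absent peaks that were in an array or were repeat-rich without a site, 45.4% lay in 20 blocks of 1 Mb, the fullest being chr19:25000001-26000000 with 30, chr19:26000001-27000000 with 28 and chr1:123000001-124000000 with 26. The 20 blocks were picked as those that held the most of these peaks. The share of other array peaks in them was not measured, so this does not set control-absent peaks apart. In these arrays a CT peak was seldom far. Of the 609, 74.9% had one within 10 kb, against 27% of the peaks with a site and few repeats. Alpha satellite DNA is hidden from alignment in a repeat-masked genome, so the masked lists do not bear on these arrays. Centromere arrays of hg38 are modelled sequence, and short reads cannot be placed uniquely in identical copies, so the position of a peak within an array is uncertain.

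The histone libraries played no part in the choice, other than H3K4me3. The H3K9me3 and H3K27me3 lists were used by title, though the methods text names their antibodies opposite to the labels. H3K9me3 peaks overlapped 3.45% of control-absent peaks in CT and 2.91% in KD, between the shares of the other classes. Constitutive peaks were overlapped in 6.57% and 5.94% (differences -3.11 points, -3.77 to -2.45, and -3.03 points, -3.65 to -2.41). KD-only peaks were overlapped in 1.66% and 1.44% (differences 1.79 points, 1.33 to 2.28, and 1.47 points, 1.05 to 1.92). Of the 253 overlapped in CT, 206 were repeat-rich peaks without a site, and of the 213 overlapped in KD, 189 were. Within that group of 736, H3K9me3 overlapped 28% of control-absent peaks in CT and 25.7% in KD, and H3K27me3 21.6% and 21.2%. In peaks with a site and few repeats the 4 shares were 0.523%, 0.118%, 0.0675% and 0, the last allowing up to 0.0623%. Input peaks followed the same division, with 8.97% of the first group and none of the 5923 of the second overlapping one. The part of input signal in the histone overlaps was not tested.

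**Figure D4:**
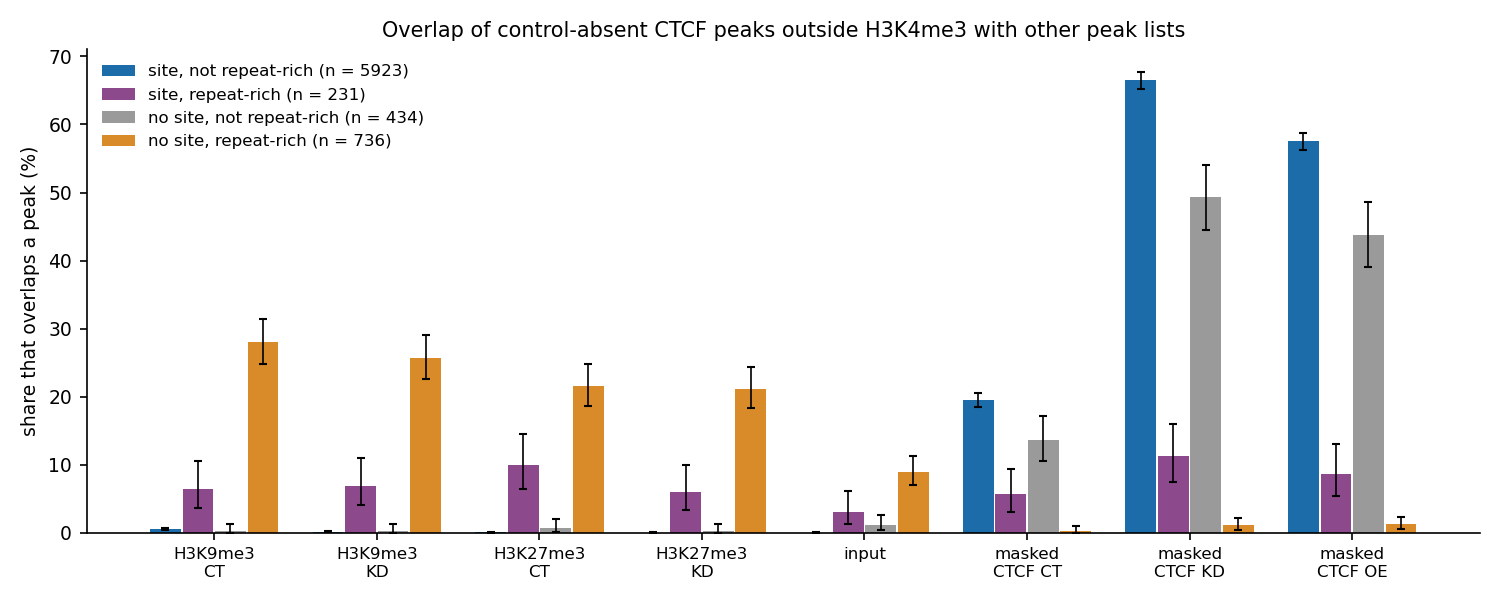
Share of control-absent peaks, in percent, that overlap a peak of H3K9me3, H3K27me3, input or CTCF on repeat-masked reads, for the 4 groups by site and repeat content. Bars give shares and error bars exact 95% intervals. Histone and input overlap is highest in the repeat-rich peaks without a site (orange), and masked-read CTCF overlap, which masking itself keeps low in repeats, is shown as a description.

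The repeat-rich, site-free control-absent peaks overlapped H3K9me3 less than constitutive peaks of the same make and more than KD-only ones. In CT the share was 28% of 736 against 62.6% of 788 constitutive peaks, a difference of -34.6 points (-39.1 to -29.8), and in KD it was 25.7% against 60.8%, a difference of -35.1 points (-39.6 to -30.3). For H3K27me3 the differences were -10.8 points in CT (-15.1 to -6.31) and -17.8 points in KD (-22.2 to -13.2). Input overlap was 8.97% against 11.9% (difference -2.96 points, -6.04 to 0.127). Of the 2256 KD-only peaks of this make, H3K9me3 overlapped 8.16% in CT and 7.58% in KD, which left the control-absent peaks 19.8 points (16.5 to 23.3) and 18.1 points (14.9 to 21.5) higher. They were also higher than KD-only peaks for H3K27me3, by 17.7 points in CT (14.7 to 20.9) and 16.6 points in KD (13.6 to 19.8), and for input, by 8.04 points (6.12 to 10.3). Control-absent peaks of this make at H3K4me3 overlapped input in 53.1%, and H3K27me3 in 83.3% in CT. They overlapped H3K9me3 in 43.4% in CT and 53.7% in KD. For KD and CT peaks of this make outside H3K4me3, without an OE peak, the H3K9me3 shares were 34.3% in CT and 37.9% in KD. Both classes thus lay above the control-absent peaks outside H3K4me3. Constitutive, control-absent and KD-only peaks differ by the rule in how many CTCF lists held the peak. The part of this in the overlap differences was not tested.

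In the wider neighbourhood, an H3K9me3 peak lay within 10 kb of 14.1% of control-absent peaks in CT (13.4 to 15) and 10.3% in KD (9.58 to 11). Without peaks in tandem arrays these shares were 8.97% and 4.71%. The H3K9me3 lists held 14546 peaks in CT and 8356 in KD. For peaks with a site and few repeats the shares were 7.01% in CT and 2.97% in KD, and for constitutive peaks of that kind 6.93% and 2.38%. Control-absent and constitutive peaks thus differed by 0.0807 points in CT (-0.778 to 0.953) and 0.589 points in KD (0.0439 to 1.15). An H3K4me3 peak of KD lay within 10 kb of 42.9% of control-absent peaks, and an H3K4me3 peak of CT overlapped 7.39% of them. The 2 shares were 44.1% and 12.2% in constitutive peaks outside H3K4me3, and 38.8% and 2.21% in KD-only peaks.

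Of the control-absent peaks, 45.7% had their centre in an intron, 40.5% in intergenic sequence, 5.11% in an exon and 8.70% within 1 kb of a start site. The 156 peaks on sequences other than chromosomes 1 to 22, X and Y had no annotation and were counted as intergenic. The intergenic share was 0.267 points above that of constitutive peaks (-1.24 to 1.78), a difference not detectable with these numbers of peaks. Bodies of 2848 of 19970 protein-coding genes held a control-absent peak. The 10 with the most were long genes. CAMTA1 (a calmodulin-binding transcription activator, 984 kb), KAZN (kazrin, a junction-associated protein) and the X-linked ENSG00000250349 held 7 each. ARHGAP15 (a GTPase-activating protein) and TBC1D5 (a regulator of endosomal sorting) held 6 each, and ANK3 (ankyrin G), DLGAP1 and MAGI2 (synaptic scaffolds), DMD (dystrophin) and WDPCP (a planar polarity effector) held 5 each. Per length, ARHGAP15 had 8.86 peaks per Mb and DMD 2.23 per Mb, against 2.59 per Mb over all protein-coding gene bodies. In CAMTA1, all 7 control-absent peaks held a CTCF site, and the gene had 2 constitutive and 3 KD-only peaks besides. In DLGAP1, all 5 had a site, beside 2 constitutive peaks and no KD-only peak.

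With 10 kb on either side, 21.3% of all protein-coding genes held a control-absent peak, at a median length of 27.5 kb. In the list of CTCF and cohesin genes it was 9 of 20, an interval of 23.1 to 68.5%, with 1 peak each at the cohesin subunits RAD21, STAG1 and STAG2, the loaders NIPBL and MAU2, PDS5B, ESCO2, NPM1 and YY1. The median length of this list was 69.9 kb. RAD21, ESCO2 and YY1 had no constitutive peak outside or at H3K4me3, while STAG2 had 6. In the HOX clusters it was 17 of 39 genes, an interval of 27.8 to 60.4%, but these are neighbours that shared 7 peaks. Among clustered protocadherins, whose promoter choice depends on CTCF, 4 of 53 genes (PCDHA1 to PCDHA4) shared 2 control-absent peaks, both with a site. The interval of this share, 2.09 to 18.2%, lay below 21.3%, but it treats these neighbouring genes as independent. DNA and H3K9 methylation genes held one in 3 of 24, with 2 peaks at DNMT3A, a de novo DNA methyltransferase, and 1 each at MORC2 and TET2. Imprinted genes held one in 3 of 30 (GRB10, MAGEL2 and MEG3). The intervals of the last 2 lists included 21.3%.

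By chromosome, control-absent peaks made up between 18.3% of the KD peaks outside H3K4me3 on chromosome 9 (16.4 to 20.4) and 29.1% on chromosome 16 (25.9 to 32.5). Chromosomes 17 and 19 stood near the top, at 28.8% and 27.6%. The intervals of neighbouring chromosomes in this order overlapped, and those of the first and last did not.

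**Figure D5:**
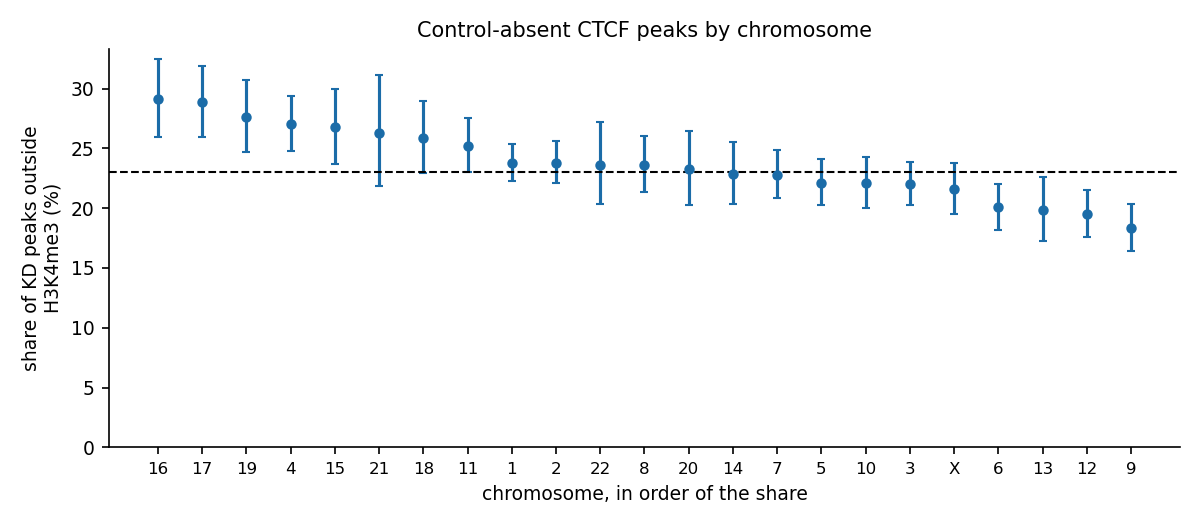
Share of the KD CTCF peaks outside H3K4me3 that were control-absent, in percent, on chromosomes 1 to 22 and X in order of the share. Points give the share, error bars the exact 95% interval, and the dashed line the 23% of all sequences. Chromosome 16 is highest at 29.1% and chromosome 9 lowest at 18.3%.

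The median distance from a control-absent peak to the nearest other one was 109 kb, and 8.14% had another within 10 kb. Among the 736 repeat-rich peaks without a site, the nearest of the same group lay a median of 41.6 kb away. Of these, 17.1% had one within 10 kb. The spacing that random placement would give was not computed. Pairs of neighbouring site-bearing KD peaks that included a control-absent peak were convergent, with both motifs pointing inward, in 24.1% of 10796 pairs (23.3 to 24.9), divergent in 24.6% and in the same direction in 51.3%. Independent strands would give 25%, 25% and 50%. Among pairs of constitutive peaks, 23.4% of 7247 were convergent and 27.2% divergent (26.1 to 28.2).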

How the data were processed

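CTCF was measured in CT, KD and OE, and the histone marks in CT and KD, with 1 library each. Per the labels, the authors mapped reads with Bowtie2 to hg38 and called peaks with MACS2, and bedtools was used. Per the labels the threshold on p was 0.0025 for CTCF in CT and KD, 0.005 in OE, and 0.001 for histone marks, input and repeat-masked reads. The methods text gives 0.005 and a minimum length of 200 bp for unmasked reads. It also names the H3K9me3 and H3K27me3 antibodies opposite to the labels, and lists were used by title. The deposited files hold positions in bp alone. Starts were read as counted from 0, which makes the narrowest unmasked CTCF peaks 199 bp wide and could move positions by 1 bp.

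A control-absent peak was taken from the authors' list of KD peaks without CT peak, outside the list of KD peaks without OE peak. Both lists equal an overlap of at least 1 bp between the KD list and the other list. The 14-column CTCF matrix was learned from 17916 constitutive CT peaks on the chromosomes, starting from the sequence of 10 bases most enriched in peak centres, in 8 rounds. Sites were scored on both strands. Repeats were measured by 24-mers counted over hg38, in place of RepeatMasker. The 24-mer count misses old copies. The tandem-array measure and the CENP-B box search were added after the data were seen. Genes were from GENCODE release 44, and sequences from hg38.

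Named regions and genes followed a rule: the 8 highest-scoring sites on different chromosomes, the 10 protein-coding genes with the most peaks, and the genes of 7 lists, of which 2 are not reported here. All members, lists and tests were chosen with earlier results of these data known. Conditions were not tested against each other, since each had 1 library. Python 3.11.15, numpy 2.4.6, pandas 2.3.3, scipy 1.17.1, numba 0.67.0 and matplotlib 3.10.9 were used, and the functions were tested on simulated data. Alternatives changed the site threshold, the sequence searched, the overlap rules, the repeat minimum, the peak width and the sequences and peaks admitted.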

Additional observations from a re-analysis of the deposited data

How the results depend on the processing

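The number of control-absent peaks, their site, repeat-rich, CG, masked-read CT and intergenic shares and their H3K9me3 neighbourhood were recomputed with 1 choice changed at a time. The other results were computed with 1 setting. Of 124 recomputed values 95 kept their direction and their side of the threshold, or for a share stayed within its main interval. The share of control-absent peaks with a site was 66.8% at p below 0.00001, 81% in the central 200 bp, 85.4% with OE overlap of at least 0.5 both ways, 85.2% without H3K4me3 peaks of CT, 81.8% without masked-read CT peaks, 80.9% in peaks of 300 bp or less and 90.5% without tandem arrays. Its difference from control-absent peaks at H3K4me3 fell to 0.663 points without input peaks. The repeat-rich share was 12.1% with the stricter OE overlap, 12.3% without input peaks, 11.8% without H3K4me3 peaks of CT, 11.2% with 100 or more copies, 15.6% without masked-read CT peaks, 15.7% up to 300 bp and 5.33% without tandem arrays. Its difference from constitutive peaks was 0.773 points without CT peaks within 500 bp, -0.342 points up to 300 bp and -0.456 points without tandem arrays. The last 2 turned the direction, with intervals that included 0. Up to 300 bp there were 4044 control-absent peaks, of which 13.6% had a masked-read CT peak. The share with H3K9me3 within 10 kb was 9.18% in KD and 13.1% in CT without H3K4me3 peaks of CT, 11.7% and 15.7% without masked-read CT peaks, 12.2% and 15.9% up to 300 bp, and 4.71% and 8.97% without tandem arrays. The intergenic difference turned to -0.926 points without tandem arrays (-2.46 to 0.609). The tandem-array alternative was added after the data were seen. The causes were not tested. No paired analysis was possible because each group had 1 library, and leaving out a replicate was not possible for the same reason. Read depth per peak was unknown, and how far CT signal lay below the threshold was not measured. The CT and OE thresholds also differed.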

Other observations

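Short strings were counted on both strands in the 300 bp around peak centres. CGGCGG, a unit of the CGG repeats that CGGBP1 binds, was found in 1.15% of control-absent peaks (0.916 to 1.42), in 1.59% of constitutive peaks outside H3K4me3 (1.34 to 1.87) and in 1.03% of evenly spaced windows. TGANTCA allows any base in the middle and so is looser than the AP-1 motif. It was found in 7.78% of control-absent peaks, 7.77% of constitutive peaks and 9.18% of windows. Among the 434 control-absent peaks with neither a site nor many repeats it was found in 9.91% (7.26 to 13.1). GGAATGGAA, a run of the simple satellite repeat of pericentromeric DNA, was found in 0.655% of control-absent peaks and 0.546% of windows, and in 1.49% of the 736 repeat-rich peaks without a site (0.748 to 2.66). These counts describe letters in the reference and say nothing of the factors. The set of strings was chosen after the data were seen.

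Of the 4365 KD CTCF peaks in tandem arrays of the alpha satellite period, 26.1% were constitutive at H3K4me3, 25.3% KD-only outside H3K4me3, 14% control-absent outside H3K4me3 and 13.7% constitutive outside H3K4me3. Among all 47632 KD peaks these classes held, in the same order, 9440, 13167, 7324 and 9046 peaks. Control-absent peaks outside H3K4me3 made up 15.4% of all KD peaks, near their 14% in the arrays.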
